A study of Homo sapiens with 15 samples.

Results

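Dystonia is a disorder of sustained or repetitive muscle contractions, and inherited forms have been traced to single genes. THAP1, which encodes a zinc-finger transcription factor, is one of them. The levels of 9 other monogenic dystonia genes were examined here, chosen by name: TOR1A, GNAL, SGCE, KMT2B, VPS16, PRKRA, ANO3, TAF1 and EIF2AK2. Each stood on a single line of the 35805 genes of the deposited table, and 8 of the 9 were among the 16787 genes expressed highly enough to be tested. The question was which of them differed in level when THAP1 was disrupted.

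RNA was sequenced from HEK-293T, a line derived from human embryonic kidney, in 5 groups of 3 libraries. Untransduced cells, labelled as wild-type, made up 1 group, and whether they are the reporter line described below is not given in the sources used here, which limits each comparison with them. The cells of the other 4 had received Cas9 together with 1 guide, and are named after it as sg1-Control and sg2-Control for the controls and sg1-THAP1 and sg2-THAP1 for the target. The control guides cut within introns, so that sgControl (6 libraries) and sgTHAP1 (6 libraries) all carry Cas9 and a guide. According to the methods of the study, THAP1 was disrupted in a line that carries GFP at the PSMB5 promoter and overexpresses PSMB5, and GFP-dim cells were sorted as a population rather than as clones. The sort is described for the THAP1-disrupted cells, and its effect and that of the guide cannot be told apart.

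The proteins of these genes work in different places. TOR1A encodes torsinA, an ATPase of the endoplasmic reticulum lumen and nuclear envelope. GNAL encodes the G protein alpha subunit Golf, which couples dopamine and adenosine receptors to adenylyl cyclase in the striatum, and SGCE encodes epsilon-sarcoglycan, a membrane protein of the dystrophin-associated complex. KMT2B is a histone H3 lysine 4 methyltransferase, and TAF1 is the largest subunit of the general transcription factor TFIID. VPS16 is a core subunit of the HOPS and CORVET complexes, which tether endosomes and lysosomes. PRKRA encodes PACT, an activator of the double-stranded RNA-dependent kinase PKR, and EIF2AK2 encodes PKR itself, which phosphorylates the translation factor eIF2. ANO3 belongs to the anoctamin family of calcium-dependent channels and scramblases.

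THAP1 binds a short DNA sequence, THABS, written TNNNGGCA, and acts at some promoters with YY1, whose core was searched as ATGGCGGC. Promoters of RefSeq (GRCh38.p14, 250 bases before to 50 after a gene's start) were available for 7 of the 9 genes, and TOR1A and SGCE have no entry in the table. Of the 35116 promoters in the table, 41.7% hold a THABS match on either strand and 3.0% a YY1 core. The windows were chosen because 4 of the 6 genes whose level differed between sgTHAP1 and sgControl have a THABS match. TOR1A, another of the 6, could not be searched. The windows of 30 bases that hold the THABS matches in the first entry of each gene are shown with the match in capitals. It reads TNNNGGCA on the opposite strand in all 5.
GNAL, chr18:11689014-11689043, plus strand: tttctgatTGCCGCAActgcggctccaggt
KMT2B, chr19:35718001-35718030, plus strand: ccctctcacggTGCCAAGAtggcggcggcg
VPS16, chr20:2840507-2840536, plus strand: gcgacccccagTGCCCGAAgggaaagcaag
VPS16, chr20:2840632-2840661, plus strand: ccaagtgaggcTGCCCACAgtggtgatggc
TAF1, chrX:71366354-71366383, plus strand: accatcactgcTGCCGCCAtcatgtcagac

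The match in GNAL begins 242 bases before the RefSeq start, which lies inside the span that the deposited table gives the gene, and those in VPS16 begin 227 and 102 bases before its start. In KMT2B and TAF1 the match begins at base 10 and base 9 of the transcript, and a YY1 core overlaps it by 1 base in KMT2B and by 7 bases in TAF1. Overlapping THABS and YY1 matches were found in 0.350% of all promoters. The first entries of PRKRA, ANO3 and EIF2AK2 hold no match, although 1 of the 3 entries of PRKRA does. Of the 5 entries of GNAL, 2 hold a THABS match. The 2 entries of TAF1 each hold a THABS match, and 1 of them a YY1 core. A match describes the letters and not a bound site. Among the 10809 tested genes with a promoter entry, 35.4% of those with a THABS match at the first entry and 36.4% of those without were lower in sgTHAP1 than in sgControl. Of the 71 such genes with overlapping THABS and YY1 matches, 33.8% were lower and 33.8% higher, with a median difference of 0.03.

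Levels are given as log2 RPM, where RPM is the number of reads of a gene scaled to the total reads of its library. Libraries held 30400150 to 36548571 reads in untransduced cells, 31900203 to 56638448 in sgControl and 30645103 to 47754887 in sgTHAP1, and the 8 tested dystonia genes had 244 to 4065 reads each per library. The THAP1 transcript was 5.19-fold higher in sgTHAP1 than in sgControl, with all 6 sgTHAP1 libraries above the 9 others. Edits at a gene need not lower its transcript, so this level does not measure how far THAP1 was disrupted. The cause of the rise was not tested. Markers of HEK-293T cells (6 genes, among them neurofilaments and LIN28B) were all detected in each condition, with a summed level of 482 to 643 RPM. A list of 9 striatal neuron markers summed to 41.8 to 43.6 RPM in untransduced cells, 26.6 to 33.0 in sgControl and 19.4 to 21.4 in sgTHAP1, with PENK at 0 reads in the first and second and SLC32A1 at 0 in the third. A list of 8 glial markers summed to 3.51 to 4.01 RPM in untransduced cells, 1.5 to 2.8 in sgControl and 0.941 to 1.82 in sgTHAP1. The 10 markers of the other cell lines of the study summed to 210 to 267 RPM, nearly all of it from CDKN2A (mean 7.86 to 8.02 log2 RPM in the 3 conditions), and 6 of them were too low to be tested. The part of the lower striatal and glial sums in the results below was not tested.

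Between sgTHAP1 and sgControl, 6 of the 8 tested dystonia genes differed at an adjusted p under 0.05 (limma, adjusted over all tested genes). GNAL, TOR1A, EIF2AK2, KMT2B and TAF1 were lower and VPS16 was higher. The same rule called 52.8% of all tested genes, 32.6% as lower and 20.2% as higher, so that being called was common among all genes. In bulk RNA, fewer cells with a transcript and less of it per cell cannot be told apart. None of the 8 passed the numerical thresholds of the study, an adjusted p under 0.001 with a change over 2-fold, which 2.18% of tested genes did. The median difference was -0.25 on the log2 scale for the 8 genes and -0.06 for all tested genes. In each of the 6 genes the sgTHAP1 and sgControl libraries did not overlap, with 5 below and 1 above, as was the case for 30.9% of tested genes. A two-sided exact permutation test over the 12 libraries, which takes those of 1 guide as independent, gave p = 0.00216 for each of the 6, the smallest it can give, p = 0.457 for SGCE and p = 0.890 for PRKRA.

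**Figure D1:**
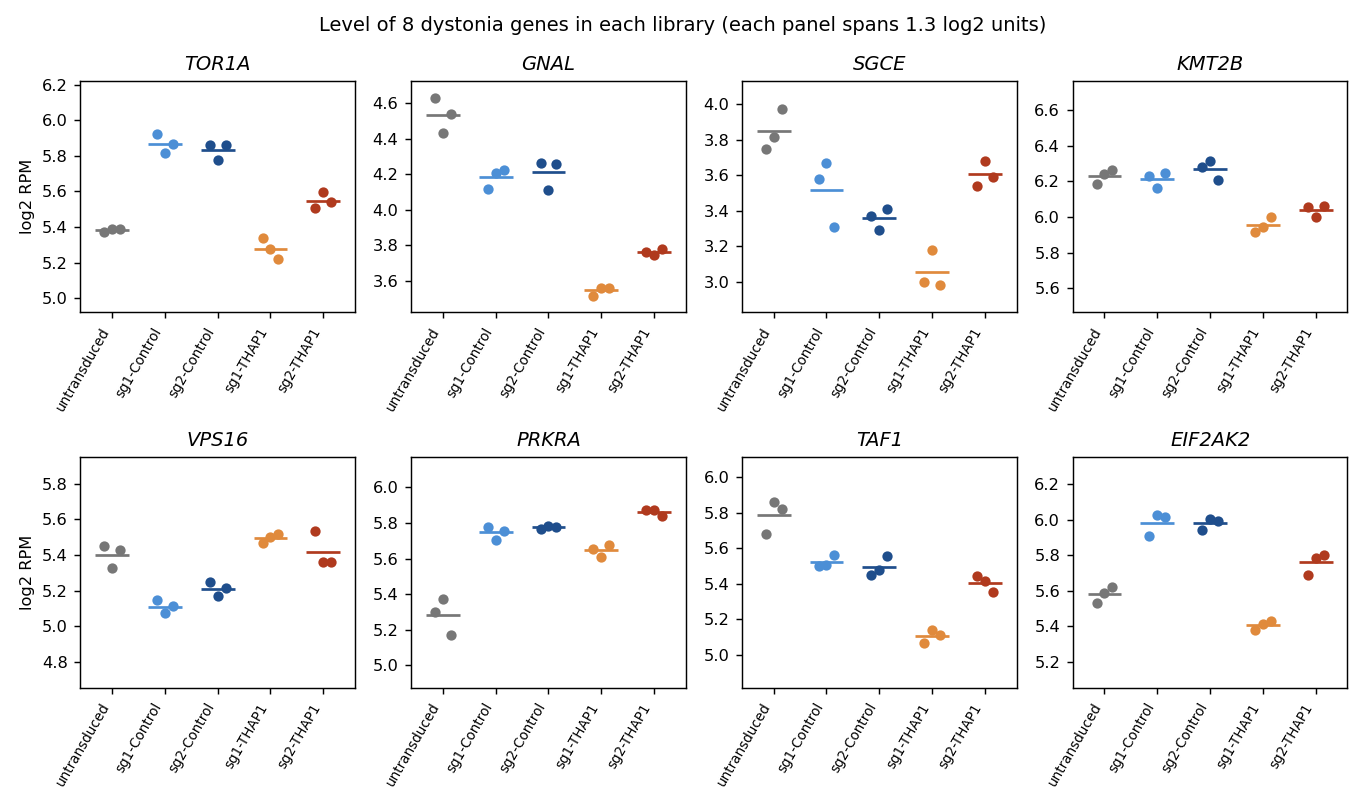
Level of 8 dystonia genes in log2 RPM (vertical axis, 1.3 log2 units in each panel) in the 5 groups (horizontal axis), with 1 point per library and a line at the mean of each group of 3. The 6 sgTHAP1 libraries of GNAL, KMT2B and TAF1 lie below the other 9, whereas those of TOR1A, EIF2AK2 and VPS16 lie around the untransduced libraries at the deposited scaling. Under median centring, which is not plotted, the mean differences of sgTHAP1 from untransduced cells were 0.30, 0.27 and 0.33 for TOR1A, EIF2AK2 and VPS16.

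GNAL, on chromosome 18 (11688956 to 11885685, plus strand), showed the largest difference among the 8. It stood at 4.63, 4.43 and 4.54 log2 RPM in untransduced cells, while the sg1-Control libraries gave 4.12, 4.21 and 4.22 and the sg2-Control libraries 4.27, 4.11 and 4.26. The sg1-THAP1 libraries gave 3.52, 3.56 and 3.56 and the sg2-THAP1 libraries 3.76, 3.75 and 3.78. The 3 conditions formed separate steps, highest in untransduced cells and lowest in sgTHAP1. GNAL was lower in sgTHAP1 than in sgControl by -0.54 (SE 0.06, limma adjusted p = 2.0e-07), to 68.7% of the sgControl level with a 95% confidence interval of 63.0% to 74.8%. It was also lower in sgControl than in untransduced cells (-0.34, SE 0.07, limma adjusted p = 0.000395), and sgTHAP1 cells held 54.4% of the untransduced level. Of all tested genes, 18.7% changed by at least as much between sgTHAP1 and sgControl.

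The same stretch of chromosome 18 holds CHMP1B, a subunit of the ESCRT-III membrane scission machinery, which lies inside the span of GNAL on the same strand. CHMP1B was lower in sgTHAP1 than in sgControl by -0.66 (SE 0.07, limma adjusted p = 5.2e-08), and did not pass between sgControl and untransduced cells (0.16, limma adjusted p = 0.0896). How its reads bear on those of GNAL was not tested. MPPE1, which overlaps the end of GNAL on the opposite strand, differed by -0.07 (limma adjusted p = 0.535).

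KMT2B, on chromosome 19 (35718019 to 35738878, plus strand), was lower in sgTHAP1, with sgControl and untransduced libraries at like levels in the deposited scaling. It stood at 6.19, 6.24 and 6.27 log2 RPM in untransduced cells. Control guides gave 6.23, 6.17 and 6.25 (sg1-Control) and 6.28, 6.31 and 6.21 (sg2-Control). THAP1 guides gave 5.91, 5.95 and 6.0 (sg1-THAP1) and 6.06, 6.0 and 6.06 (sg2-THAP1). All 6 sgTHAP1 libraries lay below all 9 others, while sgControl and untransduced libraries overlapped. The difference from sgControl was -0.24 (SE 0.04, limma adjusted p = 7.7e-06), or 84.4% of the sgControl level (95% confidence interval 80.2% to 88.8%). Between sgControl and untransduced cells it was 0.01 (95% confidence interval -0.08 to 0.10, limma adjusted p = 0.861), but this sign depends on the scaling, at 0.17 under median centring and -0.10 under quantile normalization. IGFLR1, which overlaps KMT2B by 78 bases on the opposite strand, did not pass (0.15, limma adjusted p = 0.339), and neither did its neighbours AD000671.6 (0.02, limma adjusted p = 0.898) and U2AF1L4 (-0.10, limma adjusted p = 0.447).

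TAF1, on the X chromosome (71366239 to 71532374, plus strand), stood at 5.68, 5.86 and 5.82 log2 RPM in untransduced cells, while the sg1-Control libraries gave 5.50, 5.51 and 5.56 and the sg2-Control libraries 5.45, 5.48 and 5.55. The sg1-THAP1 libraries gave 5.07, 5.14 and 5.11 and the sg2-THAP1 libraries 5.44, 5.41 and 5.35. The untransduced libraries were the highest and the sg1-THAP1 libraries the lowest, and the sg2-THAP1 libraries lay just under the sgControl libraries. TAF1 was lower in sgTHAP1 than in sgControl by -0.25 (SE 0.06, limma adjusted p = 0.00135) and lower in sgControl than in untransduced cells by -0.28 (SE 0.07, limma adjusted p = 0.00226), the latter call being lost under median centring (-0.12, limma adjusted p = 0.0705). OGT, the gene of the O-GlcNAc transferase, starts 709 bases after the end of TAF1 on the same strand. It was lower by -0.71 (SE 0.06, limma adjusted p = 3.1e-09) in sgTHAP1 against sgControl and by -1.13 in sgControl against untransduced cells, and its part in the reads of TAF1 was not tested.

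GNAL, KMT2B and TAF1 were the genes of the 8 in which all 6 sgTHAP1 libraries lay below all 9 others at the deposited scaling, as 12.9% of tested genes did. For KMT2B the difference between sgTHAP1 and untransduced cells, -0.24 at that scaling, was 0.03 under median centring (limma adjusted p = 0.443) and -0.07 with voom (limma adjusted p = 0.107). All 3 hold a THABS match, as does VPS16, which moved the other way, but the windows printed above were chosen for such matches. A match is common, held by 41.7% of all promoters.

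TOR1A, on chromosome 9 (129812944 to 129824134, minus strand), behaved otherwise. It stood at 5.37, 5.39 and 5.39 log2 RPM in untransduced cells. Control guides gave 5.92, 5.82 and 5.87 (sg1-Control) and 5.86, 5.78 and 5.86 (sg2-Control). THAP1 guides gave 5.34, 5.27 and 5.22 (sg1-THAP1) and 5.51, 5.60 and 5.54 (sg2-THAP1). The control guides were the high group, and the untransduced libraries lay between those of sg1-THAP1 and sg2-THAP1. TOR1A was lower in sgTHAP1 than in sgControl by -0.44 (SE 0.06, limma adjusted p = 1.3e-06), or 73.8% of the sgControl level (95% confidence interval 68.1% to 79.9%), with sgControl above untransduced cells by 0.47 (SE 0.07, limma adjusted p = 4.0e-06). Between sgTHAP1 and untransduced cells the difference was 0.03 (95% confidence interval -0.11 to 0.17, limma adjusted p = 0.702). TOR1B, the neighbouring paralog on the opposite strand, did not pass (0.05, limma adjusted p = 0.591), and C9orf78, on the other side of TOR1A, was higher by 0.25 (limma adjusted p = 2.4e-07).

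EIF2AK2, on chromosome 2 (37099210 to 37157065, minus strand), followed the same course. It stood at 5.53, 5.59 and 5.62 log2 RPM in untransduced cells, while the sg1-Control libraries gave 5.91, 6.03 and 6.02 and the sg2-Control libraries 5.94, 6.0 and 5.99. The sg1-THAP1 libraries gave 5.38, 5.41 and 5.43 and the sg2-THAP1 libraries 5.69, 5.79 and 5.80. Here too the untransduced libraries separated the THAP1 guides, above every sg1-THAP1 library and below every sg2-THAP1 library. EIF2AK2 was lower in sgTHAP1 than in sgControl by -0.40 (SE 0.07, limma adjusted p = 3.4e-05), with sgControl above untransduced cells by 0.40 (SE 0.08, limma adjusted p = 0.000175), and differed by 0.00 between sgTHAP1 and untransduced cells (95% confidence interval -0.16 to 0.17, limma adjusted p = 0.967). GPATCH11, which overlaps it by 35 bases on the opposite strand, was lower by -0.15 in sgTHAP1 (limma adjusted p = 0.00799) and higher by 0.15 in sgControl against untransduced cells (limma adjusted p = 0.0222).

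PRKRA, whose product activates PKR, is also on chromosome 2 (178431414 to 178451512, minus strand). It stood at 5.30, 5.37 and 5.17 log2 RPM in untransduced cells. Control guides gave 5.78, 5.71 and 5.76 (sg1-Control) and 5.77, 5.78 and 5.78 (sg2-Control). THAP1 guides gave 5.65, 5.61 and 5.68 (sg1-THAP1) and 5.87, 5.88 and 5.84 (sg2-THAP1). Every transduced library lay above the untransduced ones, and the sgControl libraries lay between the THAP1 guides. The pooled difference between sgTHAP1 and sgControl was -0.01 (95% confidence interval -0.11 to 0.10, limma adjusted p = 0.919), while sgControl and sgTHAP1 were each higher than untransduced cells, by 0.48 and 0.47 (limma adjusted p = 6.3e-07 and 6.0e-07). Neither AC009948.5 (0.17, limma adjusted p = 0.217) nor DFNB59 (-0.44, limma adjusted p = 0.0768), which overlap PRKRA on the opposite strand, passed in sgTHAP1.

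VPS16, on chromosome 20 (2840703 to 2866732, plus strand), was the gene of the 8 that rose. It stood at 5.45, 5.33 and 5.43 log2 RPM in untransduced cells, while the sg1-Control libraries gave 5.15, 5.07 and 5.11 and the sg2-Control libraries 5.25, 5.17 and 5.21. The sg1-THAP1 libraries gave 5.47, 5.50 and 5.52 and the sg2-THAP1 libraries 5.53, 5.36 and 5.36. The sgControl libraries were the lowest 6 of the 15. VPS16 was higher in sgTHAP1 than in sgControl by 0.30 (SE 0.04, limma adjusted p = 9.2e-06), or 123% of the sgControl level (95% confidence interval 115% to 131%), lower in sgControl than in untransduced cells by -0.24 (SE 0.05, limma adjusted p = 0.000498), and differed by 0.05 between sgTHAP1 and untransduced cells (95% confidence interval -0.06 to 0.17, limma adjusted p = 0.364). Its difference between sgControl and untransduced cells no longer passed under median centring (-0.09, limma adjusted p = 0.222).

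The promoter side of VPS16 overlaps PCED1A by 488 bases on the opposite strand, so that the VPS16 windows printed above lie within the span of PCED1A. PCED1A moved in the same directions and further, by 1.09 in sgTHAP1 against sgControl (SE 0.06, limma adjusted p = 5.3e-12) and by -0.89 in sgControl against untransduced cells (limma adjusted p = 6.8e-10). Since the use of strand in the counting is not given in the sources used here, reads of the pair cannot be told apart over those 488 bases. PTPRA, which overlaps the end of VPS16 on the same strand by 2549 bases, did not pass (0.03, limma adjusted p = 0.756).

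SGCE, on chromosome 7 (94585230 to 94656209, minus strand), varied most. It stood at 3.75, 3.82 and 3.97 log2 RPM in untransduced cells. Control guides gave 3.58, 3.67 and 3.31 (sg1-Control) and 3.37, 3.29 and 3.41 (sg2-Control). THAP1 guides gave 3.0, 3.18 and 2.98 (sg1-THAP1) and 3.54, 3.68 and 3.59 (sg2-THAP1). The sg1-THAP1 libraries were the lowest of all and the sg2-THAP1 libraries lay among or above the sgControl libraries. The pooled difference from sgControl was -0.11 (95% confidence interval -0.34 to 0.13, limma adjusted p = 0.439), an interval that holds a fall to 78.8% and a rise to 109% of the sgControl level. SGCE was lower in sgControl than in untransduced cells by -0.41 (SE 0.14, limma adjusted p = 0.0130), a call that was lost without untransduced replicate 3 (-0.34, limma adjusted p = 0.0719), under quantile normalization (-0.18, limma adjusted p = 0.201) and under median centring (-0.25, limma adjusted p = 0.0741). Between sgTHAP1 and untransduced cells it was lower by -0.52 (limma adjusted p = 0.00230), a call also lost under quantile normalization (-0.17, limma adjusted p = 0.206) and median centring (-0.25, limma adjusted p = 0.0763). PEG10, which starts 116 bases from SGCE on the opposite strand, did not pass in sgTHAP1 (-0.10, limma adjusted p = 0.781) but was higher by 2.36 in sgControl than in untransduced cells (limma adjusted p = 4.1e-06), on 5 to 91 reads in those libraries.

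ANO3, on chromosome 11 (26309599 to 26663288, plus strand), was not detected. It had 0 reads in 14 of the 15 libraries and 5 reads in sg2-THAP1 replicate 3. A count of 0 allows up to 3 reads, which is 0.0530 to 0.0987 RPM depending on the depth of the library, so no difference between groups could be measured. MUC15, inside its span, had at most 1 read, and SLC5A12 next to it was lower by -2.05 (limma adjusted p = 0.00235) on 0 to 14 reads.

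**Figure D2:**
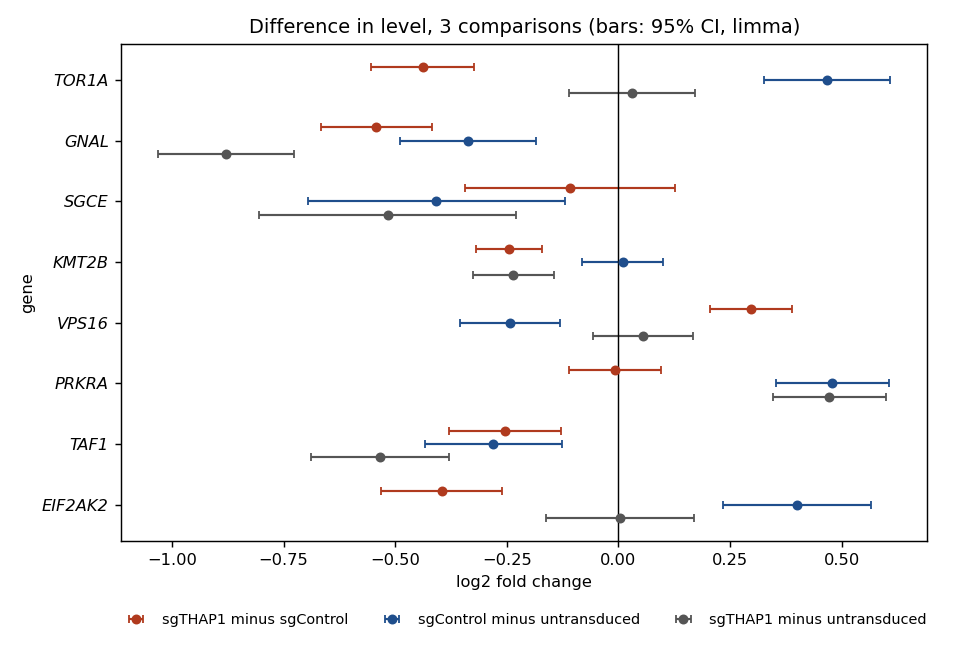
Difference in level (horizontal axis, log2 fold change) of 8 dystonia genes (vertical axis) in sgTHAP1 minus sgControl, sgControl minus untransduced and sgTHAP1 minus untransduced, at the deposited scaling from limma, with 95% confidence intervals as bars. For TOR1A and EIF2AK2 the first difference is negative and the second positive, for VPS16 the reverse, and the interval of the third includes 0 in all 3 genes.

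The comparison with untransduced cells thus grouped the genes. Between sgControl and untransduced cells 7 of the 8 genes passed, 4 lower (GNAL, SGCE, VPS16 and TAF1) and 3 higher (TOR1A, PRKRA and EIF2AK2), beside 68.6% of tested genes (40.5% lower and 28.1% higher). Between sgTHAP1 and untransduced cells 5 passed, 4 lower (GNAL, SGCE, KMT2B and TAF1) and 1 higher (PRKRA), beside 72.4% (45.5% lower and 26.9% higher). These comparisons share libraries and are not independent of each other. The directions relative to untransduced cells also depended on how the libraries were scaled. Median centring, which sets the median tested gene equal in all libraries, moved the median of all genes by 0.11 in sgTHAP1 against sgControl and by 0.27 in sgTHAP1 against untransduced cells. Under it GNAL (-0.61, limma adjusted p = 2.2e-08) and TAF1 (-0.26, limma adjusted p = 0.000464) were still lower in sgTHAP1 than in untransduced cells. KMT2B was not, and TOR1A (0.30, limma adjusted p = 3.7e-05), EIF2AK2 (0.27, limma adjusted p = 0.000622) and VPS16 (0.33, limma adjusted p = 7.3e-05) were higher. Against sgControl the 6 genes kept their direction and passed under each of 3 other scalings.

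**Figure D3:**
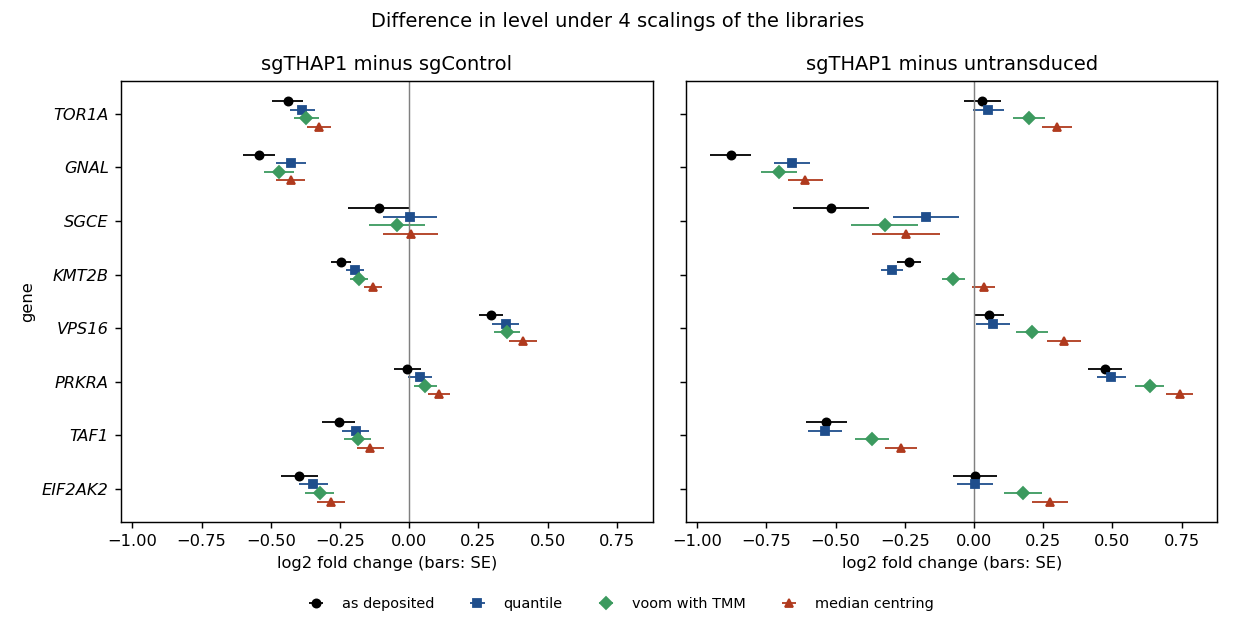
Difference in level (horizontal axis, log2 fold change, with the SE as bars) of 8 dystonia genes under the deposited scaling, quantile normalization, voom with TMM scaling and median centring, for sgTHAP1 minus sgControl on the left and sgTHAP1 minus untransduced on the right. On the left GNAL, TOR1A, EIF2AK2, KMT2B, TAF1 and VPS16 keep their side of 0 under all 4, and on the right KMT2B runs from -0.30 under quantile normalization to 0.03 under median centring.

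The pooled comparison treats libraries of the same guide as independent, so the guides were also set apart. Between sg1-Control and sg2-Control 0 of the 8 genes passed in limma, nor did any with voom, beside 3.88% of tested genes. Before adjustment 1 of them, VPS16 (-0.10), was under the threshold of 0.05. Between sg1-THAP1 and sg2-THAP1, 6 of the 8 passed, beside 40.0% of tested genes, and all 6 were lower with sg1-THAP1 (28.3% of tested genes were lower). The difference was -0.55 for SGCE (SE 0.09, limma adjusted p = 2.6e-06), -0.35 for EIF2AK2, -0.30 for TAF1, -0.27 for TOR1A, -0.22 for GNAL and -0.21 for PRKRA. KMT2B (-0.09, limma adjusted p = 0.0791) and VPS16 (0.08, limma adjusted p = 0.226) did not pass. Under median centring, chosen after seeing the data, 5 of the 6 were still lower with sg1-THAP1, GNAL no longer passed (-0.12, limma adjusted p = 0.186), and VPS16 was higher with sg1-THAP1 (0.18, limma adjusted p = 0.00374).

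Against sgControl, TOR1A, GNAL, KMT2B, TAF1 and EIF2AK2 were lower and VPS16 higher with either guide. The falls with sg1-THAP1 were -0.57 for TOR1A, -0.65 for GNAL, -0.29 for KMT2B, -0.40 for TAF1 and -0.57 for EIF2AK2. With sg2-THAP1 they were -0.30, -0.43, -0.20, -0.11 and -0.22 in the same order, and the rise of VPS16 was 0.34 and 0.26. The fall of TAF1 with sg2-THAP1 was the smallest (limma adjusted p = 0.0262) and no longer passed under median centring (-0.04, limma adjusted p = 0.406), quantile normalization (limma adjusted p = 0.0556) or voom (limma adjusted p = 0.0643). In total 8 of 8 genes passed with sg1-THAP1 (7 lower and 1 higher), beside 59.5% of tested genes (39.3% lower and 20.1% higher), and 7 of 8 with sg2-THAP1 (5 lower and 2 higher), beside 56.2% (30.6% lower and 25.6% higher).

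SGCE and PRKRA, which showed no pooled difference, moved apart with the guides. SGCE was lower than sgControl with sg1-THAP1 (-0.38, SE 0.08, limma adjusted p = 3.9e-05) and stood 0.17 above it with sg2-THAP1 (SE 0.08, limma adjusted p = 0.0647). Under quantile normalization it passed in opposite directions, at -0.21 with sg1-THAP1 (limma adjusted p = 0.0184) and 0.22 with sg2-THAP1 (limma adjusted p = 0.0152). PRKRA was lower with sg1-THAP1 (-0.11, limma adjusted p = 0.0105) and higher with sg2-THAP1 (0.10, limma adjusted p = 0.0254), but its fall with sg1-THAP1 passed under none of the 3 other scalings. When the guide population was given to limma as a random block, the same 6 genes passed between sgTHAP1 and sgControl, with adjusted p from 7.7e-06 for TOR1A to 0.00739 for TAF1. That fit sets a single correlation (0.43) for all genes, so it does not measure the spread between guides of each gene. For EIF2AK2, whose THAP1 guides differed by -0.35, the SE was 0.07 with and without the block.

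**Figure D4:**
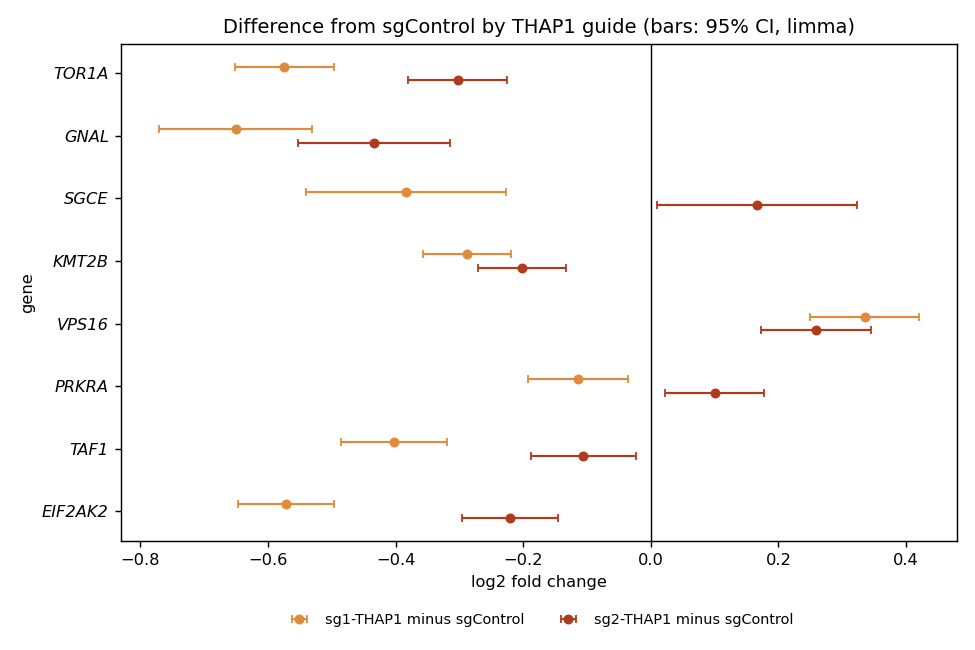
Difference from sgControl (horizontal axis, log2 fold change) of 8 dystonia genes (vertical axis) with sg1-THAP1 and with sg2-THAP1, from limma with 1 coefficient per group, with 95% confidence intervals as bars. The sg1-THAP1 points lie to the left of the sg2-THAP1 points for every gene except VPS16, and SGCE and PRKRA lie on opposite sides of 0.

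Levels between genes were compared per kilobase of the canonical transcript of GENCODE 44, in RPM per kb in untransduced cells (n = 3, SD). The order was PRKRA (22 ± 1.55), TOR1A (20.1 ± 0.12), VPS16 (15.6 ± 0.71), KMT2B (8.86 ± 0.24), SGCE (7.71 ± 0.63), TAF1 (7.29 ± 0.46), EIF2AK2 (4.8 ± 0.14) and GNAL (3.73 ± 0.25). The ranges of SGCE and TAF1 overlapped, and those of the other neighbours in the order did not. The length matters for this order, since over the union of exons of coding transcripts SGCE fell to 2.32 ± 0.19, below GNAL at 2.98 ± 0.20, and the range of PRKRA overlapped those of TOR1A and VPS16. In sgTHAP1 cells GNAL stood at 2.03 ± 0.17 RPM per kb of canonical transcript (n = 6), still the lowest of the 8.

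The partners of the 9 genes were counted from lists by function, in sgTHAP1 against sgControl. The background at the deposited scaling was the same 32.6% lower and 20.2% higher. Median centring called 9105 of the 16787 tested genes, 3742 of them lower. The median of all tested genes itself turned from -0.06 to 0.05 there. Under median centring the medians of 6 lists turned to the other sign, to 0.01 for Golf signalling (3 lower and 2 higher), 0.01 for histone methyltransferases (6 and 5), 0.00 for the tethers (5 and 3), 0.03 for double-stranded RNA and eIF2 (8 and 10), 0.10 for torsins (1 and 3) and 0.05 for the other dystonia genes (5 and 10). The medians of the dystrophin complex (-0.33, 6 lower and 2 higher) and the anoctamins (-0.37, 4 lower and 0 higher) stayed below 0 there, with quantile normalization and with voom. Of 12 tested genes of Golf signalling to cAMP, 5 were lower and 1 higher, with a median of -0.11. The phosphodiesterase PDE10A was lower by -1.12 (limma adjusted p = 6.9e-09), the cyclase ADCY3 by -0.30 and the gamma subunit GNG2 by -1.62 on 2 to 44 reads, and the beta subunit GNB2 was higher by 0.12. GNAS, the gene of the close relative Gs alpha, differed by -0.01 (limma adjusted p = 0.938). Of the dopamine and adenosine receptors on the list, DRD1 and DRD2 were not expressed highly enough to be tested. ADORA2A was tested (119 to 342 reads), at -0.11 (limma adjusted p = 0.412).

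Of 10 tested genes of the sarcoglycan and dystrophin complex, 7 were lower and 0 higher, with a median of -0.45. They include DMD (-0.81), its relative UTRN (-0.53) and the syntrophins SNTB1 (-0.90) and SNTB2 (-0.45). DMD was also lower by -0.92 in sgControl than in untransduced cells. SGCA, SGCD and SGCZ were not tested, with at most 1 read, whereas the sarcoglycan SGCB was expressed and differed by 0.04 (limma adjusted p = 0.568). Of 6 tested anoctamins 4 were lower and 0 higher, with a median of -0.48. ANO4 fell by 0.98, ANO8 by 0.66, ANO6 by 0.56 and ANO5 by 0.40 on the log2 scale. All 6 were lower in sgControl than in untransduced cells, as were 40.5% of all tested genes.

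**Figure D5:**
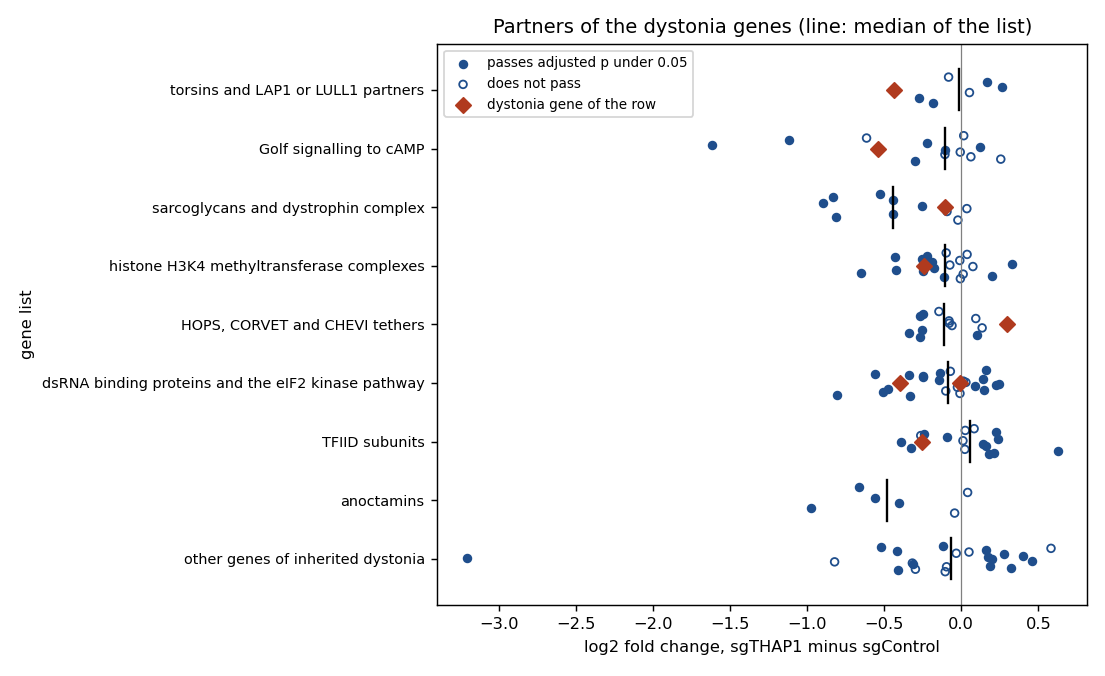
Log2 fold change of sgTHAP1 minus sgControl (horizontal axis) for the tested genes of 9 lists (vertical axis), with filled circles for an adjusted p under 0.05 in limma, open circles for the rest, a line at the median of each list and diamonds for the dystonia gene of the row. The medians of the dystrophin complex and of the anoctamins lie at -0.45 and -0.48, and those of the other lists between -0.11 and 0.05.

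Among 18 genes of histone H3 lysine 4 methyltransferase complexes, 9 were lower and 2 higher (median -0.11). The lower genes include the methyltransferases KMT2C (-0.42) and SETD1A (-0.43) and the H3 lysine 27 demethylase KDM6A (-0.65), and PAGR1 was higher (0.33). Of 16 tested TFIID subunits 4 were lower and 7 higher (median 0.05), with TAF4B (-0.39) and TAF2 (-0.32) lower and TAF12 (0.63) and TAF11 (0.21) higher. TAF1 was thus lower in a complex whose other tested subunits moved both ways. Of 12 genes of the HOPS and CORVET tethers 5 were lower and 1 higher (median -0.11), among them the HOPS subunits VPS39 (-0.27) and VPS41 (-0.25), the CORVET subunit TGFBRAP1 (-0.25), the SNARE STX17 (-0.34) and the small GTPase RAB5A (-0.27). The rise of VPS16 was larger than that of any of the 12, whose highest value was 0.14.

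Of 6 torsins and torsin partners 2 were lower and 2 higher (median -0.01). The torsin cofactors TOR1AIP1 (LAP1, -0.18, but -0.07 and limma adjusted p = 0.132 under median centring) and TOR1AIP2 (LULL1, -0.27) were lower, as TOR1A was, and the paralogs TOR2A (0.26) and TOR3A (0.16) were higher. Of 22 genes of double-stranded RNA binding and the eIF2 kinase pathway 10 were lower and 6 higher (median -0.09), with AGO2 (-0.81), the eIF2 phosphatase regulator PPP1R15B (-0.56) and the eIF2 subunit EIF2S3 (-0.25) lower. Between sgControl and untransduced cells 15 of the 22 were higher and 6 lower, beside 28.1% and 40.5% of all tested genes. AGO2 (0.48) and PPP1R15B (0.54) were higher there and EIF2S3 (-0.68) lower. Of 22 other genes of inherited dystonia 6 were lower and 8 higher (median -0.06). NR4A2, a dopaminergic transcription factor, was lower by -3.21, past an adjusted p of 0.001 and 2-fold, and was 2.34 higher in sgControl than in untransduced cells. The study set aside genes that differed between those controls, a step not applied here. TUBB4A (-0.52) and the glucose transporter SLC2A1 (-0.41) were also lower.

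The genes most like GNAL, TOR1A and KMT2B were found by the mean absolute difference, over the 15 libraries, of log2 levels set relative to untransduced cells. KLHL29 (0.05) and the anoctamin ANO6 (0.06) were closest to GNAL, where the median tested gene lay at 0.58. UBR3 (0.04) and WNK1 (0.05) were closest to TOR1A, against a median of 0.47, and C17orf85 (0.03) and XPO7 (0.03) to KMT2B, against 0.41.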

How the data were processed

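HEK-293T RNA-seq was analysed from the values per gene deposited by the authors, with 15 libraries placed in groups by their labels. The authors trimmed adaptors (Cutadapt), mapped the reads of strand-specific polyA+ libraries (HISAT2, GRCh38) and deposited log2 RPM values from SeqMonk, which lists 0 reads as 0.9 of a read. Neither the annotation release nor the use of strand in counting is given in the sources used here. Steps between low values gave whole reads for 99.8% of values within 0.01 of a read, and every value outside this tolerance was of 16431 reads or more. The other 10 numeric columns of the table hold the authors' means and fold changes and were not used.

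The members and gene lists were chosen with earlier results of these data known. Genes that reached a log2 RPM of -2 in 3 or more libraries were fitted with limma 3.58.1 in R 4.3.3 (lmFit, eBayes with trend, Benjamini-Hochberg over the 16787 tested genes), with 3 conditions, and with 5 groups for guides. Values are differences of mean log2 RPM with no pseudocount. An exact two-sided permutation test was run per gene. The comparison of sgTHAP1 with sgControl was also run on simulated data, where 11 of 16587 unchanged genes were called. Simulated log2 shifts of 0.5 were found in 95 of 100 genes, and shifts of 1.5 in 100 of 100. The simulated data held no comparison between guides. They therefore cannot vouch for p-values that take libraries of 1 guide as independent. Likeness is the mean absolute difference of levels relative to untransduced cells. Named partners are up to 4 per list with the smallest adjusted p under 0.05, and GNAS, ADORA2A, SGCB, TGFBRAP1, CDKN2A, DRD1, DRD2, SGCA, SGCD and SGCZ were named after their values were seen. Some genes that the rule names are not reported here. Neighbours overlap a member or lie within 5000 bases of it, and likeness was searched for the 3 members with the smallest adjusted p. Lengths are from GENCODE 44 and promoters from RefSeq. The replicates are biological by the study's methods. Libraries of a group differed by more than sampling noise (chi-square 2.38 to 4.78 per gene). Alternatives were other filters, a pseudocount, median centring, quantile normalization, voom (TMM, recovered reads), array weights, blocks, single guides and each library left out. The guide comparisons under other scalings were chosen after seeing the data. THAP1 binding data were not used here.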

Additional observations from a re-analysis of the deposited data

Results flagged for a closer look

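The differences between sg1-THAP1 and sg2-THAP1 passed for 6 genes, all lower with sg1-THAP1. In limma they were -0.27 for TOR1A (adjusted p = 2.6e-06), -0.22 for GNAL (adjusted p = 0.00955), -0.55 for SGCE (adjusted p = 2.6e-06), -0.21 for PRKRA (adjusted p = 0.000132), -0.30 for TAF1 (adjusted p = 1.8e-06) and -0.35 for EIF2AK2 (adjusted p = 9.6e-09). The THAP1 transcript itself was lower with sg1-THAP1 than with sg2-THAP1 by -0.59 (limma adjusted p = 6.0e-10), and its part in these differences was not tested.

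Among the 16 groups of 6 libraries examined, 1 held a library far from the others. PRKRA in sg1-Control replicate 2 stood at 5.71 log2 RPM, below the other 5 sgControl libraries, and its gap to the nearest was 0.673 of the range of the group. Chance alone marks about 1 in 20 such groups.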

How the results depend on the processing

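Under 29 alternatives, TOR1A, GNAL, KMT2B, VPS16, TAF1 and EIF2AK2 kept their direction and an adjusted p under 0.05 in sgTHAP1 against sgControl, with TAF1 running from -0.40 (sg1-THAP1 alone) to -0.11 (sg2-THAP1 alone, limma adjusted p = 0.0378). The number of genes called ran from 6 to 8 there, and was 6 to 6 with each library left out. SGCE and PRKRA, which did not pass, changed sign. SGCE stood at 0.0039 under quantile normalization, 0.0054 under median centring, 0.00026 with array weights and 0.17 with sg2-THAP1 alone. PRKRA stood at 0.0397 under quantile normalization, 0.11 under median centring (limma adjusted p = 0.0288), 0.0590 with voom, 0.0487 with array weights, 0.10 with sg2-THAP1 alone (limma adjusted p = 0.0396) and 0.0072 with sg1-Control alone as control, and at 0.0131, 0.0222 and 0.0084 without sg1-THAP1 replicate 1, 2 and 3, within a range of -0.0311 to 0.0222 over the libraries left out in turn. With sg1-THAP1 alone both passed, at -0.38 and -0.11. Leaving out 1 library gave 6 to 7 genes in sgControl against untransduced cells and 5 to 5 in sgTHAP1 against untransduced cells.

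Scaling moved the split of calls. In sgControl against untransduced cells median centring called 1 of the 8 genes lower and 4 higher, in place of 4 and 3. In sgTHAP1 against untransduced cells it called 2 lower and 4 higher and voom 3 lower and 4 higher, in place of 4 and 1. The calls over all tested genes moved likewise. Lower calls were 5072 of 11425 for sgControl against untransduced cells under median centring, against 6799 of 11523 at the deposited scaling. For sgTHAP1 against untransduced cells they were 5258 of 12224 under median centring and 6297 of 12218 with voom, against 7642 of 12157. Over all tested genes, 5476 of 8866 calls between sgTHAP1 and sgControl were lower, against 3742 of 9105 under median centring, 4249 of 8834 under quantile normalization and 4519 of 8986 with voom. The guide population as a random block (consensus correlation 0.43) left 6017 calls over all genes.

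With the replicate number as a block, 6 genes were called in sgTHAP1 against sgControl, 7 in sgControl against untransduced cells and 5 in sgTHAP1 against untransduced cells, as without it. The numbers did not pair the libraries: same-numbered libraries of different groups correlated at -0.09 to 0.06, 0 of 30 pairs over 0.1, and 6 of 15 libraries were closest to their own number. Depth limits ANO3, whose 5 reads in all allow no comparison.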
